A study of Mus musculus with 12 samples.

Results

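The cells described here were picked from sorted CD45-negative synovial cells of the mouse hind limb by the cartilage genes they expressed. A cell was taken when it had more than 500 and fewer than 5000 detected genes, at least 4 of the 7 cartilage genes Acan, Col2a1, Sox9, Comp, Hapln1, Matn3 and Col9a1, and at most 2 of the 5 osteoblast genes Ibsp, Sp7, Alpl, Runx2 and Ostn. Of 21042 cells in 12 libraries, 20213 passed the limits on genes, and 956 of these met the rule, which is 4.73% of passing cells (95% Wilson interval 4.45 to 5.03%, counting error only). These counts of cartilage and osteoblast genes chose the cells, so the levels of those genes, and the contrast of the cells with the rest, are given as a description without a test.

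The mice were wild-type C57BL/6 males of 8 to 10 weeks. The 3 rest libraries (day 0) came from untreated animals, and the other libraries came from animals with serum transfer-induced arthritis (STIA), a transient joint inflammation set off by 100 µl of serum from KRN (K/BxN) mice given into a vein. By label these were peak, taken on days 7 to 9, resolving on day 15 and resolved on day 22. Each label had 3 libraries, and each library pooled cells from the joints of 3 animals after enzymatic digestion and a sort for live CD45-negative cells. Cells cannot be traced to an animal within a library, and such a sort keeps only the cells that digestion frees from tissue as dense as cartilage.

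The 12 libraries did not group by their labels. Barcodes carry a suffix from 1 to 12, and the suffixes 1 to 3, 4 to 6, 7 to 9 and 10 to 12 each join libraries of 3 different labels. In the summed counts of the 956 cells, over 7882 genes, the library with the highest correlation to a given library had a suffix of the same run in 10 of 12 cases and the same label in 0 of 12. Suffixes 1, 2 and 3 were labelled rest, peak and resolving (replicate 1 of each), suffix 4 resolved replicate 1, suffixes 5 to 8 rest, peak, resolving and resolved replicate 2, and suffixes 9 to 12 the same labels as replicate 3. What a run of suffixes stands for is not given in the sources used here, so the runs are treated below as groups read from the files, with no condition attached. Whether the stage labels match the libraries could not be checked from the files, so every value by stage is a value of the libraries as labelled.

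Chondrocytes are the cells of cartilage. They lay down a matrix of type II, IX and XI collagen and of aggrecan, a proteoglycan whose sulfated chains hold water, under the control of SOX9 with SOX5 and SOX6. Cells of the superficial zone of articular cartilage also secrete lubricin (Prg4), deeper cells make matrilins and chondroadherin, and hypertrophic cells at the border with bone switch to type X collagen. Fibrocartilage, entheses and tendon share part of this programme, among them Comp, Fmod and Sox9, and add type I collagen.

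The promoters of 3 cartilage matrix genes are shown, chosen among genes with a single promoter entry by how sharply their transcripts separated the cells of the rule. Other matrix genes, among them Lect1, Col9a3 and Matn1, separated them more sharply than Col11a2 and Matn3, as the levels below show. Matn3 is also a gene of the rule. For each of the 25 cartilage matrix genes on and outside the rule, the 250 bases before the start were looked up in the RefSeq table of GRCm38.p6. It had exactly 1 entry for 14 of them. Of these, the 3 with the highest ratio of level in cells with all 7 cartilage genes to level in cells with 4 were taken. Genes below a floor of level in either set were passed over. All 3 lie on the plus strand: Col9a2 at chr4:121039316-121039565, Col11a2 at chr17:34038888-34039137 and Matn3 at chr12:8947679-8947928. They are written 5′ to 3′, with a TATA box core (TATAAA) in capitals.
Col9a2: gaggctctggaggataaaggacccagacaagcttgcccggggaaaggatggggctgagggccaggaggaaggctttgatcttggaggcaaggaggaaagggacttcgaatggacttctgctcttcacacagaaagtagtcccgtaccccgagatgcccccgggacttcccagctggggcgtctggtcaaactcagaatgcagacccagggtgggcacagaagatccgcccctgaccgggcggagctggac
Col11a2: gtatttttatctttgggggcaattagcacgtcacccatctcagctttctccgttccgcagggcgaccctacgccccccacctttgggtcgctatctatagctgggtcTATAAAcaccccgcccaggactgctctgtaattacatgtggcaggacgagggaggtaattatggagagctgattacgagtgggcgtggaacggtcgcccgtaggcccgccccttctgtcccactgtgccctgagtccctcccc
Matn3: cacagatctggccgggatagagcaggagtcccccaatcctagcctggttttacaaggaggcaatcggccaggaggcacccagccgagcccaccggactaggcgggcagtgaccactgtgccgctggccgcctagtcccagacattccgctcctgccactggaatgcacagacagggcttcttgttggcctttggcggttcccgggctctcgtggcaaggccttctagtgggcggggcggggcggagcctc
The TATA core was found in Col11a2 and not in the windows of Col9a2 and Matn3, searching both strands. Over all 32851 promoters of this length in the table, 12.4% held TATAAA and 27.7% held ACAAT, the core to which SOX proteins bind. Among the 14 cartilage matrix genes 2 held the former and 3 (21.4%) the latter, shares near those of all promoters, and none of the 3 windows shown held ACAAT. A match is only a run of letters. The windows follow the starts of the RefSeq entries, which can differ from the gene positions given below (GENCODE M21). By the latter Col9a2 starts at 121039385, inside its window, and Col11a2 at 34039437, past the end of its window. Matn3 starts at 8947929, directly after its window.

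Most cells of the rule sat at its lower edge. Of the 956 cells, 535 had 4 of the 7 cartilage genes, 168 had 5, 61 had 6 and 192 (20.1%, 95% Wilson interval 17.7 to 22.7%) had all 7. Over all passing cells the counts fell from 8061 with 1 gene to 71 with 6 and then rose to 326 with 7, so that the cells with all 7 stood apart from a long tail of cells with fewer. Just outside the rule were 1476 cells with 3 cartilage genes and at most 2 osteoblast genes. The limit on osteoblast genes kept out 235 cells with at least 4 cartilage genes, among them 134 with all 7, and the upper limit on genes kept out 11.

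**Figure D1:**
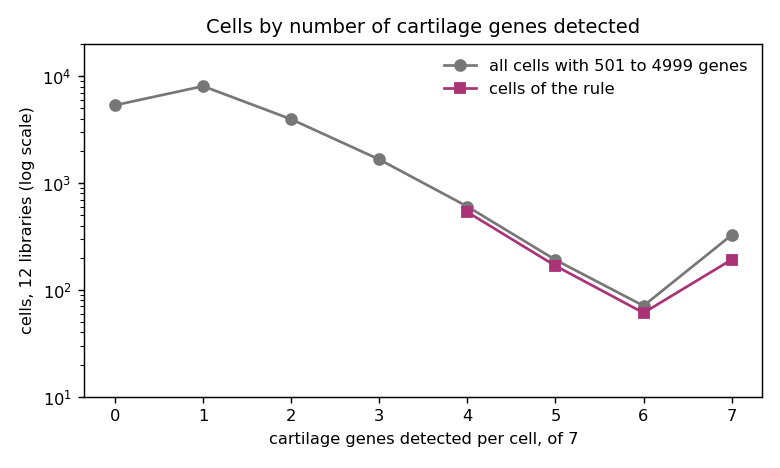
Number of cells with more than 500 and fewer than 5000 genes (circles) and of cells meeting the rule (squares), on a log axis, by how many of the 7 cartilage genes were detected, over 12 libraries. Passing cells fall to 71 at 6 genes and rise to 326 at all 7, of which 192 meet the limit on osteoblast genes.

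The cells with all 7 genes carried cartilage matrix transcripts at levels that the others did not approach. Levels are given as CPM, the UMIs of a gene scaled by the total UMIs of the summed cells, and are not corrected for transcript length, so each gene is compared with itself. Col2a1, the chain of type II collagen (ENSMUSG00000022483, GRCm38 chr15:97975602-98004695, minus strand), was at 51 CPM in the cells with 4 genes, 416 with 5, 3630 with 6 and 27995 with 7. Acan, the core protein of aggrecan (ENSMUSG00000030607, chr7:79053483-79115099, plus strand), rose from 328 through 516 and 750 to 2586 CPM over the same steps, and Hapln1, the link protein that ties it to hyaluronan, from 88 to 4250 CPM between 4 and 7 genes. Matn3 went from 31 to 4736 CPM and Col9a1 from 25 to 5038 CPM. Comp and Sox9 were far more even, at 2420 against 6741 CPM and 251 against 807 CPM. A rising count of detected rule genes must raise these levels, so the size of the steps is what they add.

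Genes outside the rule followed the same split. The other chains of type IX collagen, Col9a2 and Col9a3, stood at 7309 and 10644 CPM in cells with all 7 genes and at 9.7 and 16 CPM in cells with 4. Col11a1 and Col11a2, of the type XI collagen that nucleates the fibrils, stood at 5800 and 2277 CPM against 482 and 8.2 CPM. Lect1, which encodes the anti-angiogenic chondromodulin, was at 5970 against 7.2 CPM, Matn1 at 217 against 0.17 CPM, Ucma at 2009 against 19 CPM and Epyc at 870 against 85 CPM. Sox5 and Sox6, the partners of SOX9, were at 131 and 45 CPM against 28 and 10 CPM, whereas Trps1 was at 146 against 124 CPM. For sulfation of the aggrecan chains, Papss2 was at 538 against 33 CPM, Chst11 at 321 against 15 CPM and the sulfate transporter Slc26a2 at 124 against 19 CPM. In the 6 libraries with at least 10 cells of each kind, Col9a2, Col9a3, Col11a1, Col11a2, Lect1, Ucma, Epyc, Papss2, Chst11 and Slc26a2 were each higher in the cells with all 7 genes in all 6.

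A second group of genes ran the other way. Type I collagen (Col1a1) was at 14811, 17145 and 18908 CPM in the cells with 4, 5 and 6 genes and at 1538 CPM in those with 7, and Col3a1 fell from 8032 to 400 CPM between 4 and 7 genes. The tendon genes Tnmd and Thbs4 were at 549 and 1323 CPM with 4 genes and at 19 and 18 CPM with 7. Prg4 was at 4055, 5946 and 2659 CPM with 4, 5 and 6 genes and at 105 CPM with 7, below the 935 CPM of endothelial cells in the same libraries. Cilp, a matrix protein of the middle zones and of tendon, was at 663, 1348 and 578 CPM against 26 CPM, and Clu, a secreted chaperone, at 1397, 2118 and 2549 CPM against 224 CPM. Prg4, Cilp, Clu, Abi3bp, Gdf5, Erg, Col1a1, Col3a1, Tnmd, Thbs4 and Pdgfra were lower in the cells with all 7 genes in all 6 libraries. Cytl1, a secreted cytokine-like protein, peaked between them, at 827, 4390, 3306 and 529 CPM with 4, 5, 6 and 7 genes.

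Other cartilage genes differed less. Fmod, fibromodulin, was at 1676 CPM with 4 genes and 1833 CPM with 7, and was higher in the cells with all 7 genes in only 2 of 6 libraries. Chad, which encodes chondroadherin, stood at 1169 and 5127 CPM (higher in 6 of 6), and Prelp, a leucine-rich repeat proteoglycan, at 508 and 1530 CPM (5 of 6). Hk2, the hexokinase the study is about, was at 138, 154, 201 and 194 CPM with 4, 5, 6 and 7 genes.

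**Figure D2:**
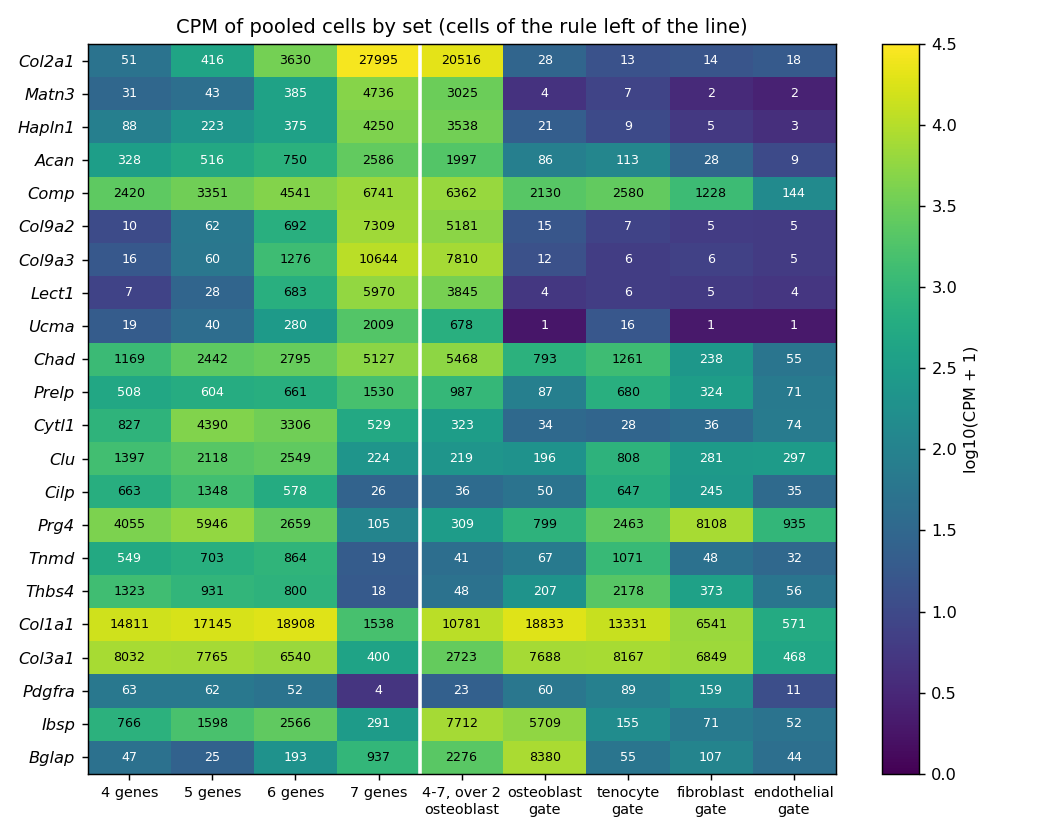
Level of 22 genes (rows) as CPM of the summed cells of each set (columns), coloured by log10(CPM + 1), with the CPM printed in each cell. Left of the white line are the cells of the rule by number of cartilage genes, and right of it the 235 cells kept out by the osteoblast limit and the osteoblast, tenocyte, fibroblast and endothelial gates; Col2a1 climbs from 51 to 27995 CPM over the cells of the rule, while Col1a1 drops to 1538 CPM in the cells with 7.

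Pooled over libraries, the markers as a set thus fit the name chondrocyte only in the 192 cells with all 7 genes. The other 764 are called here cells with 4 to 6 cartilage genes, and they are mixed. Prelp in them was at 1694 to 2210 CPM in suffixes 10 to 12 and at 141 to 243 CPM in 4 to 6. Whether some of them are chondrocytes of another zone was not tested. Col2a1 was detected in 58.6% of the 956 cells and in 48.2% of those with 4 to 6 genes, against 7.30% of 1807 endothelial cells, which should lack it. The median depth was 11185 UMIs per chondrocyte, 10131.5 per cell with 4 to 6 genes, 5394 over all passing cells and 3347 in the endothelial gate. When every cell was thinned to 2000 UMIs, all 192 chondrocytes still met the rule, but only 100 of the 764 others did (13.1%). Membership of the larger kind thus moved with depth, and 423 cells met the rule after thinning, 217 of them with all 7 genes.

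Several cartilage matrix genes varied little among the chondrocytes of different libraries. In the 7 libraries with at least 10 of them, Col2a1 lay between 24523 and 38931 CPM, Acan between 1986 and 3381 CPM, Comp between 5723 and 7498 CPM, Col9a2 between 6357 and 8837 CPM and Lect1 between 5400 and 6460 CPM. Col1a1 was the exception, at 33 to 970 CPM in 5 of them and at 5733 and 6722 CPM in resolving replicate 2 and resolved replicate 2, both of suffixes 7 to 9. Ucma was also uneven, from 966 to 4645 CPM. Against suffixes 1 to 3, edgeR's test called 0 of 3751 genes (0.0%) in the chondrocytes of suffixes 4 to 6 and 70 (1.87%) in those of 7 to 9. Suffixes 4 to 6 entered with resolved replicate 1 (16 chondrocytes) and rest replicate 2 (13) alone. Suffixes 7 to 9 entered with resolving replicate 2 (32) and resolved replicate 2 (12) alone. With so few cells, a count of 0 does not show that chondrocytes were alike between runs.

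Type X collagen, the product of hypertrophic cells, sat mostly outside the rule. Col10a1 was at 4.8, 73, 743 and 96 CPM with 4, 5, 6 and 7 cartilage genes, and at 1097 CPM in the 235 cells that the osteoblast limit kept out. Those cells carried Col2a1 at 20516 CPM together with Ibsp, a bone matrix sialoprotein, at 7712 CPM and Bglap, osteocalcin, at 2276 CPM. Ihh, the hedgehog ligand of prehypertrophic cells, was at 77 CPM in them and at 20 CPM in the chondrocytes. Their median depth was 14857 UMIs, and 15.7% of them had doublet scores in the top 6% of their library, against 11.5% of the chondrocytes and 6.28% of the cells with 4 to 6 genes. Whether doublets add to these cells was not tested. Of 93, 54 and 71 cells with all 7 genes in suffixes 1, 2 and 3, the osteoblast limit left 26, 31 and 43. In any other library at most 38 such cells were found before the limit. Levels pooled over the 235 cells thus lean towards suffixes 1 to 3. Other genes of the hypertrophic list were mixed. Pth1r, Mef2c, Panx3 and Runx3 were higher in the chondrocytes than in the cells with 4 to 6 genes in 6 of 6 libraries. Vegfa was higher in 5, Mmp13 in 2 and Spp1 in 1. Of the osteoblast genes, Alpl was detected in 65.6% of the chondrocytes and Sp7 in 29.2%.

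Compared with all other passing cells, the genes outside the rule that led the 956 cells by ratio of CPM were Serpina1b (131 against 3.8 CPM), Serpina1d, Cytl1 (1498 against 69 CPM), Ucma, Serpina1a, Lect1, Scrg1, Col9a2, Col9a3, Mia, Col11a2, Fxyd2, Chil1, Col11a1 and Sfn. The Serpina1 genes are near-identical copies of the alpha-1-antitrypsin family, so reads may be split among them. Serpina1b was at 433 CPM in the chondrocytes and 46 CPM in the cells with 4 to 6 genes. The latter were led instead by Msmp (36.2 times the level of other cells), Cytl1, Chil1, Saa1 and C1qtnf3.

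Other joint cells were taken by gates of the same kind, with at most 3 cartilage genes each: 1072 cells with at least 3 osteoblast genes, 4280 with at least 2 tenocyte genes (Scx, Tnmd, Mkx, Thbs4, Kera), 8582 with at least 3 fibroblast genes (Pdgfra, Pdpn, Serpinf1, Fbln1, Cd34, Thy1, Pi16) and 1807 endothelial cells. The cells with 4 to 6 cartilage genes shared Col1a1 with osteoblast and tenocyte gates (15604 against 18833 and 13331 CPM), Tnmd with the tenocyte gate (1071 CPM there) and Prg4 with the fibroblast gate (4364 against 8108 CPM), and had Cytl1 at 1771 CPM where none of these gates passed 74 CPM. Genes of glucose use ran high in the cells of the rule. Ldha, lactate dehydrogenase, was at 1103 CPM against 536, 695 and 714 CPM in the osteoblast, tenocyte and fibroblast gates, and Slc16a3, the lactate exporter, at 113 against 21.5, 53 and 45 CPM. Ldha, Slc16a3, Gapdh, Tpi1, Eno1 and Pkm were higher in the cells of the rule than in each of these 3 gates in all 12 libraries. The glucose transporter Slc2a1 was at 124 CPM in chondrocytes and 62 CPM in the cells with 4 to 6 genes, while Hk2 showed no such lead, at 156 CPM against 208 CPM in the fibroblast gate. The hypoxia gene Adm was lower than in each of the 3 gates in all 12 libraries (11 CPM against 44, 49 and 77 CPM). Immediate early genes were mixed. Fos was at 2553 CPM against 5763, 4851 and 3807 CPM, and Fos and Zfp36 were below the 3 gates in every library, whereas Ier3 was above the fibroblast gate in 11 of 12 libraries and above the tenocyte gate in 9, and Btg2 was above the fibroblast gate in 10 and the osteoblast gate in 9.

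The share of cells meeting the rule varied by suffix run and not detectably by label. It was 2.67 to 4.63% of passing cells in suffixes 1 to 3, 5.64 to 8.43% in 4 to 6, 5.30 to 7.89% in 7 to 9 and 1.24 to 1.48% in 10 to 12, so that the last run lay below every other library. Thinned to 2000 UMIs per cell, the order of the first 3 runs turned, with 4.19 to 6.01% in suffixes 1 to 3, 0.980 to 1.61% in 4 to 6, 1.53 to 3.54% in 7 to 9 and 0.224 to 0.632% in 10 to 12. By label the means were 6.04% ± 1.69 (SD, n = 3) at rest, 3.85% ± 3.14 at peak, 4.51% ± 2.98 at resolving and 4.99% ± 3.6 at resolved. The differences from rest were -2.19, -1.53 and -1.05 percentage points, with p = 0.3, 0.5 and 0.8 in two-sided exact permutation tests of 3 libraries against 3, where 0.1 is the smallest p possible, and Benjamini-Hochberg adjusted p of 0.75, 0.75 and 0.8. Shares of cells also carry what digestion and the sort let through.

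The make-up of the cells moved with the runs more than their number did. Chondrocytes with all 7 genes were 32.5, 86.1 and 75.4% of the cells of the rule in rest, peak and resolving replicate 1 (suffixes 1 to 3), and 0 to 26.3% in the other 9 libraries. They were 1.49 to 3.49% of passing cells in suffixes 1 to 3 and at most 1.86% elsewhere, and the 2 ranges overlap only through resolving replicate 2. Without the limit on osteoblast genes, cells with all 7 genes were 4.0 to 5.77% of passing cells in suffixes 1 to 3. Elsewhere they were then at most 2.21%, without overlap. Cells with 4 to 6 genes were 0.370 to 3.09% of passing cells in suffixes 1 to 3, 4.93 to 7.20% in 4 to 6, 4.86 to 7.50% in 7 to 9 and 0.916 to 1.47% in 10 to 12. Resolving replicate 3 held 0 chondrocytes among 1426 passing cells. Differences in the summed cells between runs therefore mix a shift between these kinds with a shift within each, and are given below for all cells and for the cells with 4 to 6 genes alone. The latter are themselves mixed, so their differences can also carry a change in which cells they hold.

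**Figure D3:**
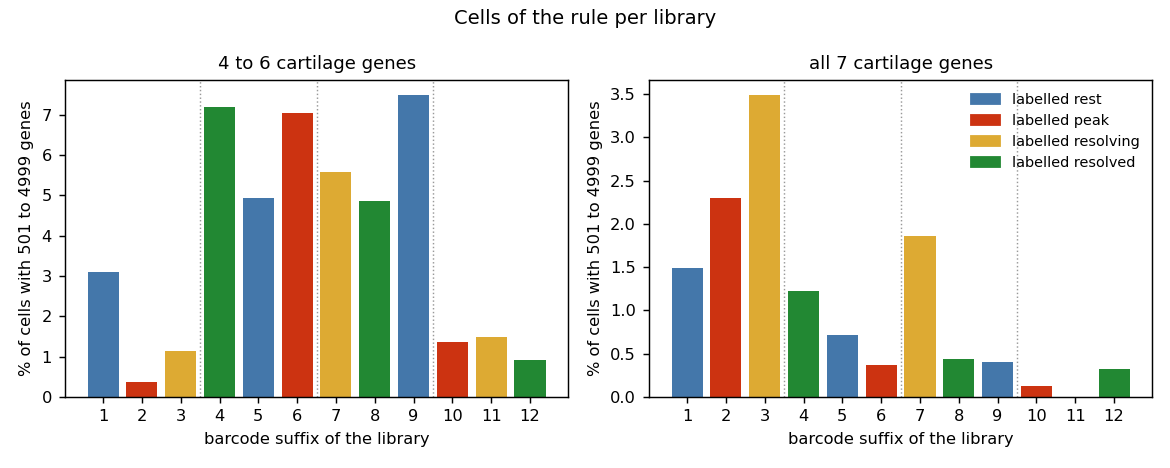
Cells with 4 to 6 cartilage genes (left) and with all 7 (right) as a percentage of passing cells, 1 bar per library in order of barcode suffix, coloured by label, with dotted lines between suffix runs. Suffixes 4 to 9 hold 4.86 to 7.50% cells with 4 to 6 genes whatever their label, and suffixes 1 to 3 the most cells with all 7, apart from 1.86% in suffix 7.

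Against rest, no gene was called at any stage in the comparison of labels alone. With UMIs summed over the cells of the rule per library and edgeR's quasi-likelihood test, 0 of 7882 genes (0.0%) passed a Benjamini-Hochberg adjusted p of 0.05 with a log2 fold change over 0.5 at peak, resolving or resolved, and 73 (0.926%), 88 (1.12%) and 32 (0.406%) had an unadjusted p under 0.05. DESeq2 also called 0, with 48, 64 and 23 genes at an unadjusted p under 0.05. The 27 inflammation genes tested had a median log2 fold change of 0.02 at peak, -0.54 at resolving and 0.28 at resolved, beside 0.010, -0.020 and 0.0031 over all genes. The 18 cartilage matrix genes outside the rule had medians of 0.72, 0.78 and -0.26. The spread is seen in Mmp3, stromelysin, whose level in the 3 libraries of a label was 16, 517 and 770 CPM at rest, 35, 530 and 117 CPM at peak, 73, 1152 and 146 CPM at resolving and 727, 1002 and 136 CPM at resolved. Each label thus spanned low and high libraries, and the labels overlapped throughout. With the suffix run as a block, 2 genes were called at peak (Col10a1 and AW112010, named after their values were seen), both higher, and 0 at resolving and at resolved. With 3 libraries per label and this spread, other differences between stages were not detectable.

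Between suffix runs many genes differed. The runs were made groups because libraries of these data were most alike within them. The calls below therefore describe the size of that grouping and are no independent test of it. Of 7882 genes, 2545 (32.3%) passed an adjusted p of 0.05 for any difference among the 4 runs. Against suffixes 1 to 3, 1863 genes (23.6%) were called in suffixes 4 to 6, 829 higher (10.5%) and 1034 lower (13.1%). In suffixes 7 to 9, 1449 (18.4%) were called, 692 higher (8.78%) and 757 lower (9.6%). In suffixes 10 to 12 there were 434 (5.51%), 235 higher (2.98%) and 199 lower (2.52%). Scaling by total counts alone in place of TMM turned the last split to 166 higher and 344 lower. The count for suffixes 10 to 12 was 62 without peak replicate 3, 91 without resolving replicate 1, 134 without peak replicate 1, 151 without resolving replicate 3 and 1041 without rest replicate 1, and that for 7 to 9 was 744 without resolving replicate 1, 847 without rest replicate 3 and 919 without resolved replicate 2. With the replicate number as a block, 668 genes differed among the runs, and 630, 12 and 0 were called in suffixes 4 to 6, 7 to 9 and 10 to 12. Number and run overlap, since suffixes 1 to 3 are all replicate 1 and 10 to 12 all replicate 3.

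Among all cells of the rule, cartilage matrix genes fell as a group in suffixes 4 to 6. Of the 18 tested outside the rule, 16 were lower and 0 higher than in suffixes 1 to 3, beside 13.1% lower and 10.5% higher over all genes. Their median log2 fold change was -2.66 against 0.02 over all genes. Col9a2 stood at 4073, 6493 and 6023 CPM in suffixes 1 to 3 and at 746, 664 and 182 CPM in 4 to 6, a log2 fold change of -3.49 ± 0.80 (SE) with adjusted p = 0.0061 (edgeR, as for all adjusted p-values below). The chondrocyte share fell between the same libraries, as given above. In the cells with 4 to 6 genes alone, which drop peak replicate 1 with its 5 such cells and leave 2 libraries in suffixes 1 to 3, the log2 fold change of Col9a2 was 0.96 ± 1.11, and in chondrocytes alone it was 0.07, neither called. Col9a3 and Lect1 did the same, from -3.48 and -3.48 in all cells to 0.96 and 0.86 in the cells with 4 to 6 genes, and the receptor gene Pth1r went from -3.04 to -0.13. The call of Lect1 in all cells was lost without resolving replicate 1, resolved replicate 1 or peak replicate 2.

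A smaller set of matrix genes was lower in the cells with 4 to 6 genes as well. Suffixes 1 to 3 entered there with rest replicate 1 (54 such cells) and resolving replicate 1 (14) alone. Whether this mixed class held other cells in other runs was not tested. In the cells with 4 to 6 genes 1503 of 8367 genes (18.0%) were called between suffixes 4 to 6 and 1 to 3, 767 higher (9.17%) and 736 lower (8.8%). Of the 17 matrix genes tested 7 were lower and 0 higher, although their median was 0.74. Chad, in the order of the suffixes and without peak replicate 1, was at 3738 and 4216 CPM, then 10, 475 and 109 CPM in suffixes 4 to 6, 536, 520 and 268 CPM in 7 to 9 and 12079, 10074 and 14658 CPM in 10 to 12. Suffixes 4 to 9 were thus low without overlap, and the log2 fold change for 4 to 6 was -4.26 ± 0.84 (adjusted p = 0.0025). Prelp fell by 3.01 on the log2 scale (adjusted p = 2e-05) and Vit, vitrin, by 4.55 (adjusted p = 2.2e-05). Cilp was at 1337 and 4259 CPM in suffixes 1 and 3, at 166, 301 and 132 CPM in 4 to 6, at 639, 754 and 259 CPM in 7 to 9 and at 3337, 4776 and 5275 CPM in 10 to 12, with a log2 fold change of -3.72 ± 0.49 in 4 to 6 (adjusted p = 0.00012). In chondrocytes alone 0 genes were called for this contrast, with Chad at a log2 fold change of 0.23 and Prelp at 0.03. Suffixes 4 to 6 had only resolved replicate 1 and rest replicate 2 there, with 16 and 13 chondrocytes, so few changes could be called.

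Genes of the list drawn up for the superficial zone took the same course. The list shares Prg4, Cilp and Vit with the matrix list, and Cilp is also a protein of the middle zones and of tendon, as said above. In the cells with 4 to 6 genes 7 of the 8 tested were lower in suffixes 4 to 6 and 0 higher, beside 8.8% of all genes lower. Their median was -2.61 against 0.03 over all genes. In all cells of the rule 3 of 8 were lower, beside 13.1% of all genes. Clu was at 4752 and 5878 CPM in suffixes 1 and 3, at 23, 234 and 293 CPM in 4 to 6, at 516, 760 and 578 CPM in 7 to 9 and at 7164, 12751 and 19476 CPM in 10 to 12. Its log2 fold change in 4 to 6 was -4.79 ± 0.66 (adjusted p = 0.00018). Sox5 was at 82 and 101 CPM in suffixes 1 and 3 and at 8.1, 17 and 12 CPM in 4 to 6, a change of -2.82 ± 0.37 (adjusted p = 0.00013). In growth factor signalling 11 of 20 genes were lower and 1 higher, with a median of -1.99, beside 8.8% lower and 9.17% higher over all genes. The exception was Igf1, a growth factor for cartilage, at 396 and 228 CPM in suffixes 1 and 3 and at 721, 722 and 1213 CPM in 4 to 6 (log2 fold change 1.5 ± 0.36, adjusted p = 0.0093).

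Inflammation genes were higher in suffixes 4 to 6. In all cells of the rule 14 of 27 were higher and 2 lower, with a median of 1.28, beside 10.5% higher and 13.1% lower over all genes. In the cells with 4 to 6 genes 8 of 29 were higher and 2 lower, with a median of 1.25, beside 9.17% higher and 8.8% lower over all genes. Cxcl5, a neutrophil chemokine, was at 939, 690 and 659 CPM in the 3 libraries of suffixes 4 to 6 and at 0 to 80 CPM in all others, and was called in both sets of cells. Ccl2, a monocyte chemokine and one of the genes named in the study, was at 2294, 1731 and 944 CPM in 4 to 6 against 398 and 177 CPM in suffixes 1 and 3 (log2 fold change 2.49 ± 0.69, adjusted p = 0.02). Ptgs2, cyclooxygenase 2, was at 434, 272 and 346 CPM against 51 and 51 CPM (2.83 ± 0.44, adjusted p = 0.00047). The complement gene C3 was at 179, 237 and 209 CPM against 55 and 25 CPM (2.20 ± 0.42, adjusted p = 0.0021). Ccl7 was called in all cells (3.93 ± 0.64) and not in the cells with 4 to 6 genes (2.06 ± 0.77, adjusted p = 0.081). The study names 9 genes as higher at peak than at rest in its Hk2-positive fibroblasts, which is another comparison than that between runs. Of these 9, 8 were higher in all cells and 7 in the cells with 4 to 6 genes, and 0 lower, beside the same shares of all genes. Col1a1 and Col3a1 are among the 9 and were far lower in chondrocytes, whose share of cells fell between these runs.

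Proteases and their inhibitors moved in both directions. In the cells with 4 to 6 genes Mmp3 was at 25 and 110 CPM in suffixes 1 and 3, at 791, 567 and 540 CPM in 4 to 6, at 1461, 1005 and 815 CPM in 7 to 9 and at 127, 146 and 206 CPM in 10 to 12. Its log2 fold changes were 3.68 ± 0.47 in 4 to 6 (adjusted p = 0.00011) and 4.48 ± 0.48 in 7 to 9 (adjusted p = 0.00015). Timp1, an inhibitor of matrix metalloproteinases, was at 5293, 4011 and 2353 CPM in 4 to 6 against 523 and 573 CPM (2.88 ± 0.51, adjusted p = 0.0011), and Mmp14 rose by 1.25 ± 0.32 (adjusted p = 0.014). Htra1, a serine protease that cuts cartilage matrix proteins, went the other way, at 98, 152 and 148 CPM against 1957 and 565 CPM (-3.24 ± 0.39, adjusted p = 7.5e-05). Counts of 3 higher and 3 lower of 11 described the list, with a median of 0.47, beside 9.17% higher and 8.8% lower over all genes.

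The genes with the largest calls in suffixes 4 to 6 were near 0 on one side. In all cells of the rule Aqp5, a water channel, had 0 UMIs in suffixes 1 to 3 and 10 to 12 and lay at 25 to 66.5 CPM in 4 to 6 and 17 to 48 CPM in 7 to 9. Ccl9 and the growth factor gene Ereg also had 0 UMIs in suffixes 1 to 3, against 23 to 34 CPM and 15 to 25 CPM in 4 to 6. Hhip, an inhibitor of hedgehog signalling, ran the other way, at 33 to 58 CPM in suffixes 1 to 3 and at 0 to 1.8 CPM in 4 to 6. Myoc, myocilin, was at 2376 and 691 CPM in the cells with 4 to 6 genes of suffixes 1 and 3 and at 7.8 to 31 CPM in 4 to 6 (log2 fold change -6.46 ± 1.07, adjusted p = 0.00074).

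**Figure D4:**
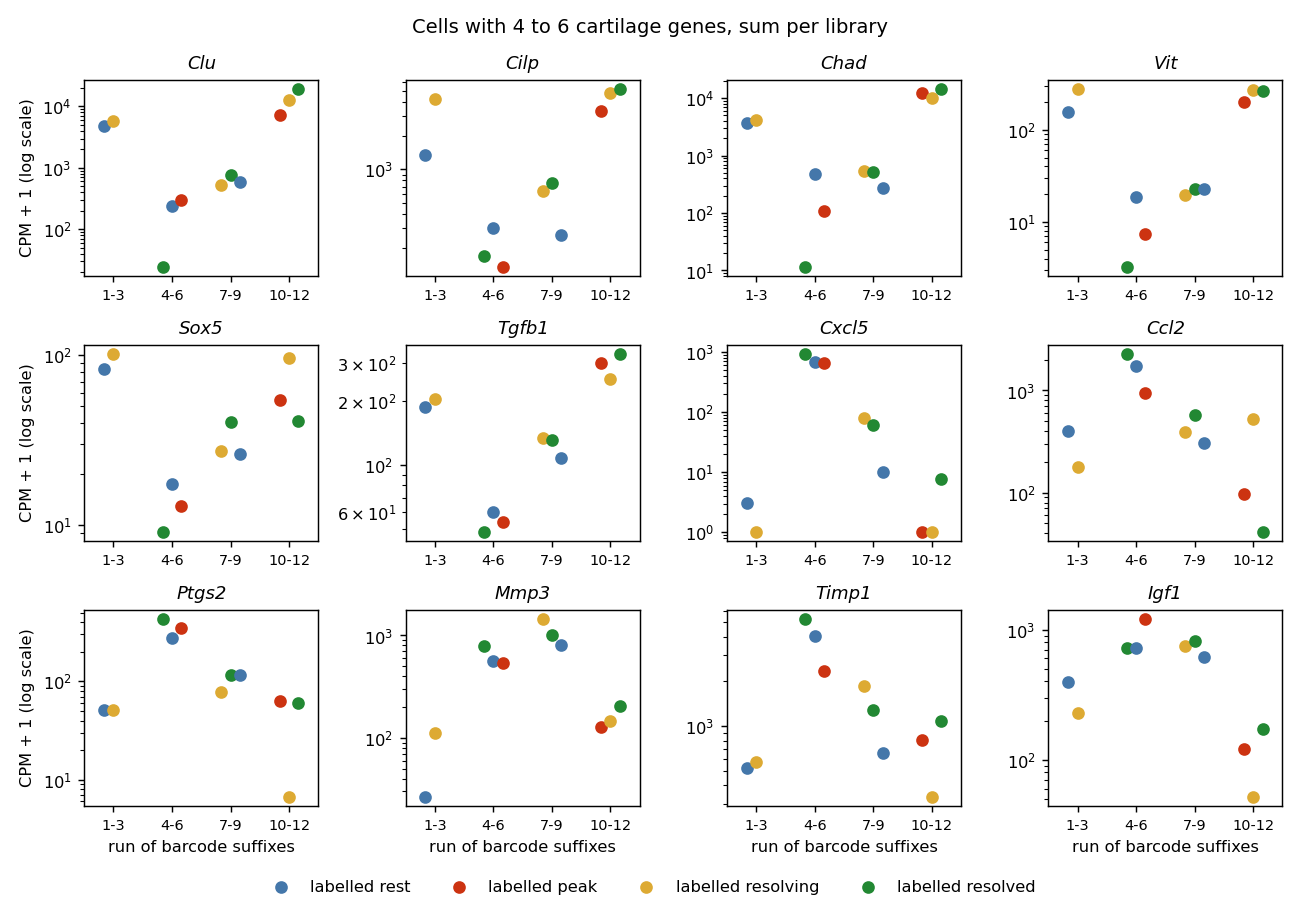
CPM + 1 on a log axis of 12 genes in the summed cells with 4 to 6 cartilage genes, 1 point per library (11 libraries; peak replicate 1 had 5 such cells and is left out), by suffix run and coloured by label. Clu, Cilp, Chad and Vit are low in suffixes 4 to 9, Cxcl5 and Ptgs2 are highest in 4 to 6 and Mmp3 is high in 4 to 9, and points of a label are spread over the range.

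Suffixes 7 to 9 shared several of these features. Of 8367 genes in the cells with 4 to 6 genes, 661 (7.90%) were called against suffixes 1 to 3, 363 higher (4.34%) and 298 lower (3.56%). Superficial zone genes were lower for 5 of 8 and higher for 0, with a median of -1.73, and Chad (-3.10 ± 0.80, adjusted p = 0.029) and Vit (-3.20 ± 0.42, adjusted p = 0.00054) were among the lower. The acute-phase gene Saa3 was at 1549, 202 and 277 CPM against 74 and 0 CPM (3.77 ± 0.93, adjusted p = 0.023). Mmp2, gelatinase A, was at 1631, 1637 and 2242 CPM against 652 and 565 CPM (1.65 ± 0.24, adjusted p = 0.0011), and Timp2 rose by 1.33 ± 0.29 (adjusted p = 0.012). Of the tenocyte markers 3 of 5 were higher in these cells (median 1.32), beside 4.34% of all genes. In all cells of the rule 5 of 5 were higher, beside 8.78% of all genes. Their summed level there was 2610 to 3117 CPM against 145 to 426 CPM in suffixes 1 to 3. The part of tendon cells in these values was not tested.

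In suffixes 10 to 12 fewer genes were called in the cells with 4 to 6 genes. The count was 10 of 8367 (0.12%), against 434 of 7882 in all cells of the rule, and the former also lacks peak replicate 1, without which the latter was 134. In all cells Cilp rose by 2.84 ± 0.42 (adjusted p = 0.0054) and 4 of 8 genes of the superficial zone list were higher, beside 2.98% of all genes. In the cells with 4 to 6 genes the change of Cilp was 0.92 ± 0.48 (adjusted p = 0.54) and 0 of 8 were called. Il6 was at 18, 0 and 13 CPM in all cells against 76 to 151 CPM in suffixes 1 to 3 (-3.14 ± 0.53, adjusted p = 0.0074). The proliferation genes Top2a and Birc5 had 0 UMIs in the 3 libraries and were at 39 to 113 CPM and 22 to 157 CPM in suffixes 1 to 3 (adjusted p = 0.021 and 0.028), and both calls were lost without resolving replicate 1, peak replicate 3 or resolving replicate 3, that of Top2a also without peak replicate 1. These 3 libraries held 76 cells of the rule together, and muscle markers summed to 22 to 2034 CPM in them, highest in peak replicate 3, against 6.9 to 168 CPM in the others. Osteoblast markers summed to 1576 to 15990 CPM in them against 78 to 1171 CPM elsewhere, and their part in these values was not tested.

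The study's own split of synovial fibroblasts, by the presence of an Hk2 transcript, was then applied to the cells of the rule. Hk2 (ENSMUSG00000000628, chr6:82725025-82774454, minus strand) encodes hexokinase 2, which takes up glucose into glycolysis by phosphorylation. An Hk2 UMI was present in 548 of the 956 cells (57.3%, 95% Wilson interval 54.2 to 60.4%), in 77.1% of chondrocytes and 52.4% of the cells with 4 to 6 genes, against 2.82% of endothelial cells. The share was 63.9 to 77.2% in suffixes 1 to 3, 59.2 to 74.4% in 4 to 6, 28.3 to 55.5% in 7 to 9 and 52.4 to 75% in 10 to 12. By label it averaged 53.3% ± 22.7 at rest, 71.1% ± 6.24 at peak, 61.7% ± 13.5 at resolving and 56.3% ± 20.8 at resolved (SD, n = 3). The differences from rest gave p = 0.2, 0.7 and 0.9 in exact permutation tests (adjusted p = 0.6, 0.9 and 0.9, smallest possible p 0.1). Thinned to 2000 UMIs per cell, the means were 31.1, 31.5, 21.2 and 36.1%.

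Some inflammation genes and the glucose transporter Slc2a1 were higher in the Hk2-positive cells. In 10 libraries with at least 10 cells of each status, in a model blocked by library and leaving Hk2 itself aside, 82 of 4368 genes (1.88%) were called, 60 higher (1.37%) and 22 lower (0.504%). The count was 2 without the block and 0 when each cell was thinned to 2000 UMIs. Scaling by total counts alone gave 44 higher and 39 lower. The Hk2-positive cells were deeper (median 11286 against 9427.5 UMIs) and held more chondrocytes (27.0 against 10.8%). Matched in UMIs within each library (258 cells of each status in 9 libraries, median 9671 against 9507.5 UMIs), 90 of 3361 genes (2.68%) were called, 70 higher (2.08%) and 20 lower (0.595%), and the share of chondrocytes still differed (28.7 against 12.02%). Of the 22 inflammation genes tested 6 were higher and 0 lower, with a median of 0.65 against -0.0076 over all genes, and in the cells with 4 to 6 genes 8 of 22 were higher, beside 57 of all 4226 genes (1.35%). Matched in UMIs, 4 of 15 were higher. Cxcl2, a neutrophil chemokine, had a lowest, median and highest level of 0, 38 and 105 CPM over the Hk2-negative sums and of 40.5, 133 and 380 CPM over the Hk2-positive sums. It was higher in the positive cells of all 10 libraries, by a log2 fold change of 1.98 ± 0.33 (adjusted p = 0.0074). Cxcl1 was at 158, 646 and 2277 CPM against 441, 1116 and 3443 CPM, higher in 10 of 10 (1.26 ± 0.24, adjusted p = 0.013), but its value turned to -0.55 in thinned cells. Chil1, a chitinase-like protein, rose from a median of 18 to 137 CPM (3.39 ± 0.60, adjusted p = 0.012), a call lost without resolved replicate 2. Nfkbiz, a regulator of NF-κB targets, was higher by 0.74 ± 0.13 (adjusted p = 0.0081) in 9 of 10 libraries, with -0.12 in thinned cells and 0.54 (adjusted p = 0.11) in cells matched in UMIs.

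The glycolysis and hypoxia list gave 2 of 16 higher and 0 lower, with a median of 0.33. Slc2a1, the glucose transporter GLUT1, was at 28, 38 and 89 CPM in the negative and at 56, 96 and 258 CPM in the positive sums, higher in 9 of 10 libraries (1.26 ± 0.18, adjusted p = 0.0051). Ndrg1, a hypoxia-responsive gene, was higher in 9 of 10 (1.27 ± 0.19, adjusted p = 0.0051). The enzymes that follow hexokinase were not called, though all those tested had a positive log2 fold change. Pgam1, at 0.44 ± 0.09, passed the adjusted p (0.028) and fell short of the fold limit. It was at 0.40 (adjusted p = 0.036) when matched in UMIs and at 0.35 (adjusted p = 0.14) in the cells with 4 to 6 genes. Gapdh was at 0.27 ± 0.08 (adjusted p = 0.094), Ldha at 0.31 ± 0.11 (adjusted p = 0.16), Eno1 at 0.22 ± 0.10 and Aldoa at 0.17 ± 0.11. P4ha1, a prolyl hydroxylase of collagen, was higher by 0.51 ± 0.10 (adjusted p = 0.019) in 10 of 10. Of the cartilage matrix genes 1 of 18 was higher (Col27a1, 0.79 ± 0.18, adjusted p = 0.039) and the median was 0.65, with Col2a1 at 0.79 ± 0.50 (adjusted p = 0.44). Matched in UMIs, 8 of 18 were higher and 0 lower, with a median of 0.80, among them Col9a2 (1.16 ± 0.21, adjusted p = 0.010) and Lect1 (1.38 ± 0.22, adjusted p = 0.0053), and Col2a1 was at 1.46 ± 0.24 (adjusted p = 0.0058). Within the cells with 4 to 6 genes alone 0 of 15 were called, with Col27a1 at 0.33 (adjusted p = 0.33).

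The largest changes among genes that moved alike in every library included F3, tissue factor (1.62 ± 0.25, adjusted p = 0.0055), the AP-1 subunit Fosl1 (1.5 ± 0.17, adjusted p = 0.0014), Gch1, the entry enzyme of tetrahydrobiopterin synthesis (1.35 ± 0.19), and Srxn1, which repairs oxidised peroxiredoxins (1.30 ± 0.20, both with adjusted p = 0.0051). Fosl1 was at 12 to 56 CPM in the negative and 58 to 176 CPM in the positive sums, which did not overlap. Lower in all 10 libraries were, among others, the homeobox gene Meox2 (-1.03 ± 0.18, adjusted p = 0.0077), Dkk3 (-0.91 ± 0.19, adjusted p = 0.028), Ccnd2, Ddah2 and Sucla2, with adjusted p of 0.030 to 0.037 for the last 3. Within the cells with 4 to 6 genes alone these 3 were not called, with Sucla2 at -0.68 beside -0.70 in all cells, Ccnd2 at -0.42 beside -0.82 and Ddah2 at -0.43 beside -0.78. The calls of Cxcl2, Cxcl1, F3, Fosl1, Gch1, Srxn1, Slc2a1, Ndrg1, Nfkbiz and Meox2 were kept whichever library was left out, while the count of calls was 32 without resolving replicate 2, 34 without resolved replicate 2, 36 without rest replicate 3, 46 without rest replicate 2 and 48 without rest replicate 1. The 9 genes named in the study were higher at peak than at rest within its Hk2-positive fibroblasts, which is another comparison than this split. Of them, Cxcl1 and Cxcl2 were higher here, Ccl2 was at 1.59 ± 0.45 (adjusted p = 0.085) and Mmp3 at 1.07 ± 0.38 (adjusted p = 0.15). Timp1 was at 0.55, and Postn, Col1a1, Acta2 and Col3a1 at -1.06, -0.61, -0.52 and -0.48, none of them called. In the cells with 4 to 6 genes Ccl2 was called too (1.94, adjusted p = 0.0087).

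**Figure D5:**
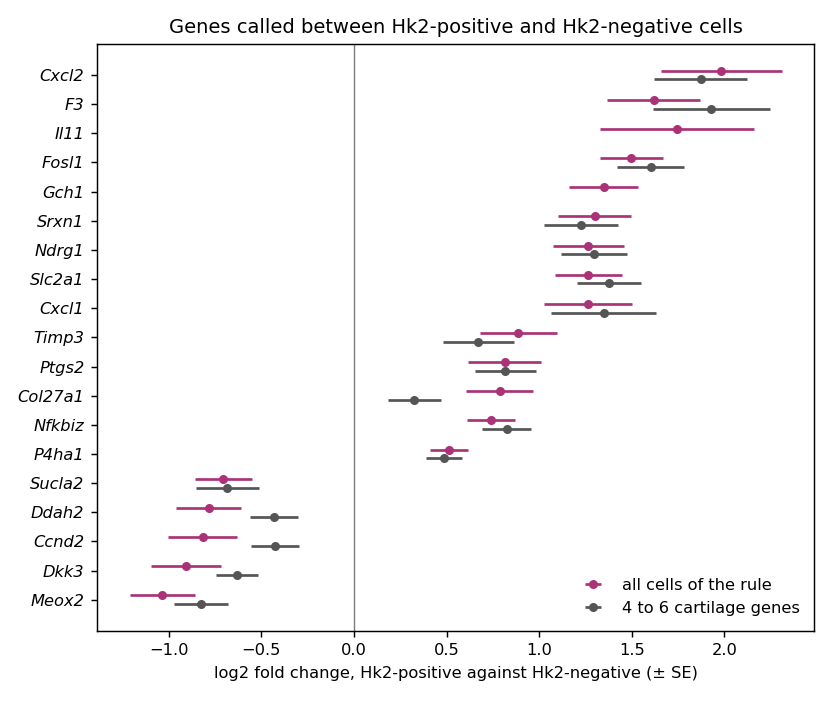
Log2 fold change with its SE of 19 genes called between Hk2-positive and Hk2-negative cells, in all cells of the rule (10 libraries) and in the cells with 4 to 6 cartilage genes. Among the 19 shown, Cxcl2 (1.98) leads the higher genes and Meox2 (-1.03) the lower. Chil1 (3.39) was also called and is not drawn. Gch1 and Il11 have no point in the second set because they were not tested there.

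Cells with lubricin were compared with cells without in the same way. Prg4 (ENSMUSG00000006014, chr1:150449412-150466165, minus strand) was detected in 809 of the 956 cells (84.6%, 95% Wilson interval 82.2 to 86.8%), 88.4% of the cells with 4 to 6 genes and 69.8% of chondrocytes, but also in 47.4% of endothelial cells, so a share this far up in a cell type that should lack the gene is the background for Prg4 detection, at median depths of 3347 UMIs there and 10372.5 in the cells of the rule. By label the share averaged 80.2% ± 16.1 at rest, 86.8% ± 10.4 at peak, 81.4% ± 12.7 at resolving and 91.2% ± 2.18 at resolved (SD, n = 3; p = 0.5, 1.0 and 0.2 against rest in exact permutation tests, adjusted p = 0.75, 1.0 and 0.6). In 6 libraries with at least 10 cells of each status 6 of 4600 genes (0.13%) were called, 5 higher (0.109%) and 1 lower (0.0217%). Cilp was at 5.4 to 70 CPM in the negative and 137 to 901 CPM in the positive sums, higher in 6 of 6 libraries and without overlap (log2 fold change 3.74 ± 0.41, adjusted p = 0.0051). Inhba, the activin subunit, was higher by 2.16 ± 0.33 (adjusted p = 0.030) and by 2.78 in the cells with 4 to 6 genes, but stood at -0.31 in chondrocytes alone, where it was not called. S100a4 (1.93 ± 0.27, adjusted p = 0.017), Tspo (1.65 ± 0.21, adjusted p = 0.014) and Lcn2, lipocalin 2 (3.39 ± 0.50, adjusted p = 0.030), were higher as well, and Gadd45g was lower (-0.96 ± 0.16, adjusted p = 0.0498). Chondrocytes were 16.6% of the positive and 39.5% of the negative cells. The count was 0 without resolved replicate 2, 1 (Cilp) without resolving replicate 2, 3 without peak replicate 2 or rest replicate 3, 12 without rest replicate 2 and 18 without resolving replicate 1, and 0 when the cells were matched in UMIs.

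Last, the change between suffix runs was compared with that of the fibroblast gate in the same libraries. In a model with the library as a block, the change among runs differed between the cells of the rule and the fibroblasts for 1275 of 8832 genes (14.4%; 2625 or 29.7% at an unadjusted p under 0.05), and for 460 genes when only the cells with 4 to 6 genes were used. The count was 698 without resolving replicate 1, 776 without peak replicate 1, 833 without peak replicate 2 and 1930 without rest replicate 1. For suffixes 4 to 6 against 1 to 3 alone, 1567 genes (17.7%) were called, 674 with a higher change in the cells of the rule (7.63%) and 893 with a lower one (10.1%), against 1050 (11.9%, 445 or 5.04% higher) for 7 to 9 and 307 (3.48%) for 10 to 12. Of 21 genes of glycolysis and hypoxia 1 had a higher and 11 a lower change for 4 to 6, with a median of -0.98 beside 0.03 over all genes. C3 was at 364 to 610 CPM in fibroblasts of suffixes 1 to 3 and at 318 to 488 CPM in 4 to 6, while in the cells with 4 to 6 cartilage genes it was at 25 to 55 CPM and at 179 to 237 CPM. Its difference of log2 changes was 3.86 ± 0.41 for all cells of the rule (adjusted p = 7.8e-05) and 2.28 for the cells with 4 to 6 genes. Prelp was at 338 to 461 CPM and 150 to 207 CPM in fibroblasts against 1027 to 2193 CPM and 141 to 243 CPM in the cells with 4 to 6 cartilage genes. Its difference was -1.41 ± 0.23 for all cells of the rule, -1.70 for the cells with 4 to 6 genes and 0.033 in thinned cells. The glycolytic genes Pkm and Slc16a3 ran the other way, since both were higher in fibroblasts of suffixes 4 to 6 (1028 to 1411 CPM against 401 to 419 CPM for Pkm) and less so in the cells with 4 to 6 cartilage genes (1204 to 1672 CPM against 930 to 1020 CPM). Their differences were -1.20 ± 0.19 and -2.91 ± 0.48 for all cells of the rule, and -1.01 and -2.91 for the cells with 4 to 6 genes. Between stage labels 0 of 8832 genes (0.0%) differed by this test, with 89 at an unadjusted p under 0.05 (1.01%), and DESeq2 gave 0 with 63. For peak, resolving and resolved against rest taken singly, 0 genes passed and 145 (1.64%), 238 (2.69%) and 60 (0.679%) had an unadjusted p under 0.05.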

How the data were processed

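Live CD45-negative synovial cells of 12 pooled hind-limb libraries were measured by 10x Chromium 3′ single-cell RNA-seq. The deposited values are UMI counts per gene and cell, which the authors made with Cell Ranger on mm10; the annotation release is not given in the sources used here. Median UMIs per passing cell were nearly equal in all libraries (5259.5 to 5963), and summed UMIs of passing cells ranged from 7739438 to 16750555, those of the cells of the rule from 178179 to 1484566. No barcode was shared between libraries, and Ptprc (CD45) had 0 UMIs in the 956 cells.

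Counts were summed over the cells of each library (at least 10 cells) and tested with edgeR 4.0.16 (filterByExpr, TMM, quasi-likelihood) in R 4.3.3, with Benjamini-Hochberg adjustment over all genes tested. A gene was called at an adjusted p under 0.05 with an absolute log2 fold change over 0.5, and tests of any difference at the adjusted p alone. Shares were compared over libraries by exact permutation with scipy 1.17.1. Doublet scores came from Scrublet in scanpy 1.11.5, which called 56 cells (0.277%) at its own threshold and so did not work as a caller; no cell was removed. Gene positions are those of GENCODE M21 (GRCm38), which held 27722 of 27998 gene identifiers. Fits were checked on simulated counts with known changes. The stage test at peak recovered 0 of 100 genes with a true log2 fold change of 1 and 24 of 99 with 2. For suffixes 4 to 6 it was 16 of 95 and 76 of 93, for the Hk2 split 78 of 82 and 84 of 86, and for the Prg4 split 49 of 86 and 75 of 75. A count of 0 between stages thus does not show that stages were alike. Between libraries of the same replicate number, correlations of deviations were 0.127 to 0.537 for rest with peak, where replicates 1 and 2 each share a suffix run. They were 0.0961 to 0.396 for rest with resolving, -0.365 to -0.0702 for rest with resolved and 0.439 to 0.607 for peak with resolving. Whether the replicate numbers stand for a pairing is not settled by these values.

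Stage and Hk2 comparisons followed the study's groups, and runs of 3 suffixes were added because libraries sorted by them. Named genes are those of the lists, and for each comparison the 6 with the largest change each way among called genes that did not overlap between groups or moved alike in every library; genes outside this rule were chosen after their values were seen. A gene that the rule would name in the Hk2 comparison is not reported here. The members and lists were chosen with earlier results of these data known. Alternatives were RLE scaling, total counts, no filter, DESeq2 1.42.0, other limits on cells and membership, thinning to 2000 UMIs, blocks and leaving out each library.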

Additional observations from a re-analysis of the deposited data

Results flagged for a closer look

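The change between suffix runs differed between the cells of the rule and the fibroblast gate for 1275 genes by the test of the difference itself (edgeR, adjusted p under 0.05). For suffixes 4 to 6 against 1 to 3, the difference of log2 fold changes, cells of the rule minus fibroblasts, was -1.33 for Cilp, -1.41 for Prelp, -2.49 for Sox5, -2.72 for Spp1, -1.20 for Pkm, -2.91 for Slc16a3, -2.71 for Wif1, -1.27 for Tgfb1 and -0.76 for Cdkn1a, and was 3.86 for C3 and 3.16 for Igf1. In cells thinned to 2000 UMIs 4 of these turned, Sox5 to 0.055, Prelp to 0.033, Cilp to 0.33 and Wif1 to 0.57. In the cells with 4 to 6 cartilage genes alone, where the difference was -1.52 for Tgfb1 and -4.69 for Wif1, Tgfb1 averaged 194 CPM in suffixes 1 to 3 and 53.1 CPM in 4 to 6, against 58.3 and 54.5 CPM in the fibroblast gate. Wif1, a secreted Wnt inhibitor, averaged 1707 and 15.9 CPM, against 37.7 and 13.5 CPM.

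Outside the cells compared above, Col10a1 was at 1097 CPM in the 235 cells that the limit on osteoblast genes kept out, against 0.12 CPM in the endothelial gate.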

How the results depend on the processing

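With the replicate block, calls stayed at 0 for each stage and numbered 668 for any difference between runs, 630 for suffixes 4 to 6, 12 for 7 to 9 and 0 for 10 to 12. With the suffix run as a block, 2 genes were called at peak (Col10a1 and AW112010, named after their values were seen). In the order any, 4 to 6, 7 to 9 and 10 to 12, thinning gave 90, 27, 170 and 7. At least 5 cartilage genes gave 1204 for any, 1017 for 4 to 6 and 115 for 10 to 12. At most 1 osteoblast gene gave 830 for 7 to 9 and 133 for 10 to 12. Cells with 4 to 6 genes gave 661 and 10, and cells with all 7 gave 0 for 4 to 6 and 70 for 7 to 9. For 10 to 12, no filter gave 1073 and the study's UMI limits 208.

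The Hk2 split gave 408 calls with no filter, 169 with DESeq2, 2 with no block (Txnip, Fosl1), 1 with at least 5 cartilage genes (Mmp3) and 0 thinned. The Prg4 split gave 14 with total counts, 261 with no filter, 63 with DESeq2, 0 with no block, 23 without the highest doublet scores, 76 with at most 1 osteoblast gene, 19 in cells with 4 to 6 genes and 0 matched in UMIs. The difference from fibroblasts between runs gave 2173 with no filter, 555 with at most 1 osteoblast gene, 234 thinned and 460 in cells with 4 to 6 genes, and between stages 6 with no filter and 40 in cells with all 7.

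Differences of shares from rest, in percentage points, turned for cells of the rule to 0.062 (peak, all 7), 0.069 (resolving, at least 5 genes), 0.511 (resolving, thinned) and 0.917 (resolving, all 7), for Hk2 to -12.6 (peak, all 7), -9.97 (resolving, thinned) and -19.7 (resolved, all 7), and for Prg4 to -3.14 (peak, thinned), -5.10 (peak, all 7) and -2.95 (resolving, all 7). Log2 fold changes turned in suffixes 4 to 6 for Col9a2 (0.96 with 4 to 6 genes, 0.070 with all 7), Col9a3 (0.96, 0.069) and Lect1 (0.86, 0.050), and with all 7 for Chad (0.23), Prelp (0.032), Sox5 (0.012) and Mmp3 (-0.048). Thinning turned Cxcl1 (-0.55) and Nfkbiz (-0.12) in the Hk2 split, and Sox5 (0.055), Prelp (0.033), Cilp (0.33) and Wif1 (0.57) in the comparison with fibroblasts, and cells with all 7 turned Inhba (-0.31) in the Prg4 split. The cause was not tested.

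Leaving out each library in turn gave 1874 to 3005 calls for any difference between runs, 1258 to 1997 for 4 to 6, 744 to 1825 for 7 to 9, 62 to 1041 for 10 to 12, 32 to 90 for Hk2, 0 to 18 for Prg4, 698 to 1930 for the difference from fibroblasts and 0 to 0 for both stage tests. Shares of cells of the rule differed from rest by -3.97 to -1.002 at peak, -2.99 to -0.01 at resolving and -2.77 to 0.82 at resolved, Hk2 shares by 5.23 to 27.3, -4.18 to 17.9 and -9.60 to 15.0, and Prg4 shares by -2.74 to 12.5, -8.08 to 6.85 and 1.65 to 15.99. Over the named genes, 811 of the other alternative values kept direction and call, 201 lost the call and 17 turned. Sums of 19 to 36 cells in suffixes 10 to 12 limit what that run can show.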
